A study of Sus scrofa with 15 samples.

Results

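Genes that mark the endothelial cells lining the vessels of the liver were followed in piglets given a bacterial endotoxin. The set was drawn up by name and held 10 genes, STAB1, STAB2, LYVE1, PECAM1, KDR, TEK, TIE1, CDH5, ENG and EGFL7. Of these, 9 were paired with 1 of the 31908 gene identifiers of the count table. STAB2 was not paired with an identifier and was not analysed here. All 9 passed the filter on low counts that left 12774 genes for testing.

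Hepatic sinusoids are lined by a specialised, fenestrated endothelium that takes up waste molecules from the blood through scavenger receptors such as the stabilins and LYVE1. Like other endothelium it is held together by VE-cadherin and PECAM1. Its growth and quiescence are controlled by receptor tyrosine kinases, of which KDR answers to VEGF and TEK to the angiopoietins, and by the BMP co-receptor endoglin.

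The animals were male piglets of a Duroc x Large White x Landrace cross. The CON group received sterile saline and the LPS group an intraperitoneal dose of 80 μg/kg lipopolysaccharide (LPS), an outer membrane component of Gram-negative bacteria, and livers were taken 4 h later. The study had 6 piglets per group and asked how LPS acts on liver inflammation and RNA methylation. The polyadenylated, sonicated RNA kept as input for the methylation assay was sequenced, and 3 input libraries per group were compared. The sources used here do not say whether a library is 1 piglet or a pool, so p-values measure only the spread between these libraries. The tissue was whole liver, in which fewer endothelial cells and less RNA per cell cannot be told apart.

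Library totals ranged from 5927348 to 10351491 counts in CON and from 4348478 to 19967417 in LPS. Libraries are named here by group and replicate, CON1 to CON3 and LPS1 to LPS3. LPS3 was the deepest and had a TMM factor, edgeR's scaling for library composition, of 0.735, against 0.979 to 1.11 in the other 5. LPS2 lay closer to the CON libraries than LPS1 and LPS3 did. Its log2 CPM (counts per 1000000 counts of the TMM-scaled library) correlated across genes with the CON libraries at r = 0.923 to 0.945 and with LPS1 and LPS3 at r = 0.907 and 0.852, while LPS1 and LPS3 correlated at r = 0.903. Chi-square per gene was 110 between LPS3 and LPS1, 146 between LPS3 and LPS2 and 46.9 between LPS1 and LPS2. It was computed on raw counts and grows with depth, so it does not show that LPS3 was the farther in composition. Each member is given without LPS2 and without LPS3. Hepatocyte markers were abundant in every library (summed level 69748 to 138460 CPM over 12 genes).

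No member of the set passed the test between the groups. A gene was called when edgeR's quasi-likelihood test gave it an adjusted p under 0.05 and it differed by more than 1.5-fold, which 0 of 9 members and 0.0548% of all tested genes did. DESeq2 and limma-voom also called 0 of 9. At an unadjusted p below 0.05, 1 member was higher in LPS (LYVE1) and 2 were lower (TEK and KDR), against 6.18% and 6.33% of all tested genes. Every LPS library lay above every CON library for LYVE1 and below it for TEK, which held for 6.52% and 9.8% of all tested genes. Fold changes were above 0 in 3 members and below 0 in 6, with a median log2 fold change of -0.41, against 0.01 over all tested genes. Without LPS3 the members' median was -0.06 and without LPS2 it was -0.62.

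**Figure D1:**
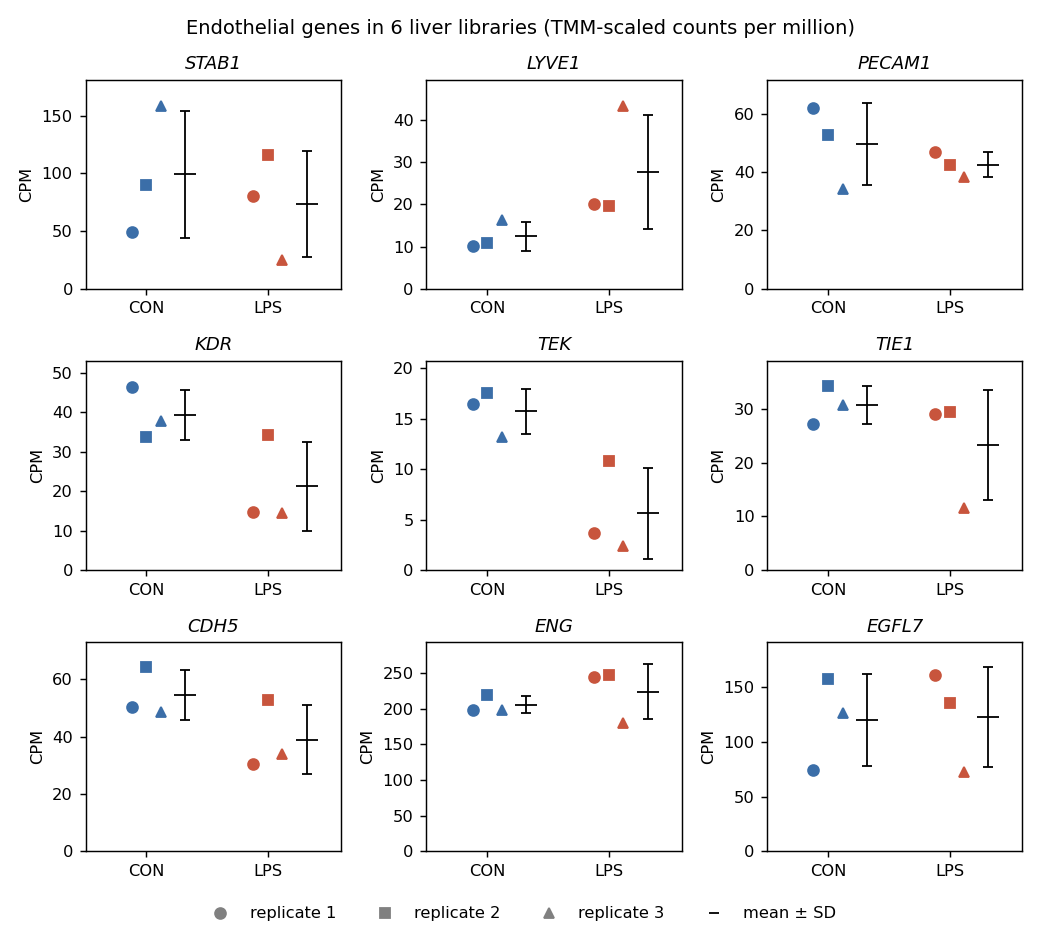
Level of each of the 9 genes in CPM (TMM-scaled, linear axis from 0) in 3 CON and 3 LPS liver libraries, with symbols for the replicate number and the mean ± SD at the side. LYVE1 ran from 10.1 to 16.3 CPM in CON and from 19.5 to 43.2 in LPS, TEK from 13.2 to 17.5 and from 2.39 to 10.8, and the groups overlapped in the other 7 genes.

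Among the receptor tyrosine kinases, TEK and KDR were low in the same LPS libraries. TEK (TIE2, the angiopoietin receptor; ENSSSCG00000005122, chromosome 1, 195937394 to 196051957, minus strand) was at 16.4, 17.5 and 13.2 CPM in CON1 to CON3 and at 3.71, 10.8 and 2.39 CPM in LPS1 to LPS3. LPS1 and LPS3 were far below the CON libraries and LPS2 lay between them. Means were 15.7 ± 2.27 CPM in CON and 5.63 ± 4.52 CPM in LPS (SD, n = 3 each). The log2 fold change was -1.50 ± 0.53 (SE; 95% interval -2.69 to -0.30), with an unadjusted p of 0.0190 and an adjusted p of 0.302 in edgeR.

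TEK rested on few reads. Its raw counts were 184, 112 and 133 in CON and 17, 66 and 35 in LPS. Exact Poisson 95% intervals, which cover counting error only, were 2.16 to 5.93 CPM in LPS1, 8.35 to 13.7 in LPS2 and 1.66 to 3.32 in LPS3. The interval of LPS2 overlapped that of CON3, 11.01 to 15.6 CPM, and those of LPS1 and LPS3 lay below all 3 CON intervals.

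KDR (VEGFR2, the main signalling receptor for VEGF-A; ENSSSCG00000008844, chromosome 8, 41809116 to 41856339, minus strand) was at 46.3, 33.7 and 37.8 CPM in CON and at 14.8, 34.2 and 14.5 CPM in LPS. The groups overlapped because LPS2 was slightly above CON2, while LPS1 and LPS3 were below every CON library. KDR had a log2 fold change of -0.89 ± 0.39 (95% interval -1.77 to -0.01; edgeR, unadjusted p = 0.0470, adjusted p = 0.391).

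Without LPS2, both kinases were called. Log2 fold changes were then -2.40 for TEK (adjusted p = 0.0111 in edgeR) and -1.42 for KDR (adjusted p = 0.0339), and 2 of 9 members fell, against 3.45% of the genes tested in that fit. No member was called higher there, against 3.76% of genes, and LYVE1 had a log2 fold change of 1.36 (adjusted p = 0.0693). Without LPS3 neither was called, and the values were -1.07 for TEK and -0.66 for KDR. Over the 6 fits that each left out 1 library, the adjusted p in edgeR ran from 0.0111 to 0.722 for TEK and from 0.0339 to 0.766 for KDR.

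TIE1, the orphan partner of TEK in the angiopoietin receptor complex (ENSSSCG00000003950, chromosome 6, 167919668 to 167940874, minus strand), was at 27.3, 34.2 and 30.8 CPM in CON and at 29.0, 29.4 and 11.5 CPM in LPS. LPS3 alone was low, and LPS1 and LPS2 lay within the CON range. TIE1 had a log2 fold change of -0.41 ± 0.39 (edgeR adjusted p = 0.707), -0.62 without LPS2 and -0.06 without LPS3.

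**Figure D2:**
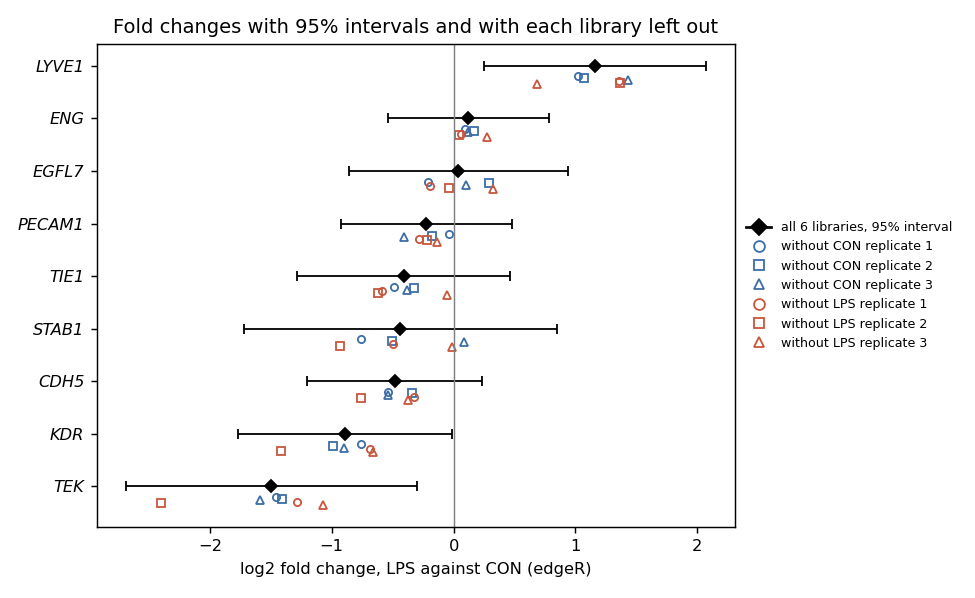
Log2 fold change of LPS against CON in edgeR for each of the 9 genes, with black diamonds and bars for the fit of all 6 libraries and its 95% interval and open symbols for fits without 1 library. Intervals exclude 0 for LYVE1, KDR and TEK before adjustment, and leaving out LPS2 moves TEK from -1.50 to -2.40 and KDR from -0.89 to -1.42.

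The scavenger receptors had fold changes of opposite sign, and neither was called. LYVE1, a hyaluronan receptor of sinusoidal and lymphatic endothelium (ENSSSCG00000029886, chromosome 2, 48937417 to 48954203, plus strand), was at 10.1, 10.8 and 16.3 CPM in CON and at 20.1, 19.5 and 43.2 CPM in LPS. All 3 LPS libraries were above all 3 CON libraries, with LPS3 the highest. Means were 12.4 ± 3.41 and 27.6 ± 13.5 CPM (SD, n = 3 each). The log2 fold change was 1.16 ± 0.41 (95% interval 0.25 to 2.07; edgeR, unadjusted p = 0.0175, adjusted p = 0.293), and it was 0.68 without LPS3. The Poisson interval of CON3, 13.9 to 19.0 CPM, overlapped those of LPS1 (16.2 to 24.6) and LPS2 (16.1 to 23.3).

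STAB1 (stabilin-1; ENSSSCG00000011443, chromosome 13, 34631693 to 34664420, plus strand) was at 49.4, 90.0 and 158 CPM in CON and at 80.0, 116 and 24.7 CPM in LPS. The libraries of each group were widely spread, with a coefficient of variation of 55.3% in CON and 62.3% in LPS, and the groups overlapped. STAB1 had a log2 fold change of -0.44 ± 0.57 (edgeR adjusted p = 0.789), and it was 0.09 without CON3, -0.93 without LPS2 and -0.01 without LPS3. The ratio of STAB1 to LYVE1 counts was 4.89, 8.35 and 9.68 in CON and 3.99, 5.93 and 0.572 in LPS, which overlapped.

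Both scavenger receptors are also made by macrophages. All 11 tested Kupffer cell or macrophage markers had a fold change below 0 (median log2 fold change -0.48), 4 of them at an unadjusted p below 0.05, and 0 were called. Their summed level was 2011 to 3257 CPM in CON and 1378 to 2310 CPM in LPS. MRC1, the mannose receptor of both sinusoidal endothelium and macrophages, was at 39.1 to 49.6 CPM in CON and at 12.0 to 29.6 CPM in LPS (log2 fold change -1.25 ± 0.39, edgeR adjusted p = 0.253). Without LPS2, MRC1 was called at -1.75 (edgeR adjusted p = 0.0157), as was MSR1, and 3.45% of the genes tested in that fit were called lower. Without LPS3 neither was called, and the values were -1.05 for MRC1 and -1.13 for MSR1. TIMD4 had a log2 fold change of -1.07 and VSIG4 of -0.93, and both lay below CON in every LPS library. The part of macrophages in the levels of STAB1 and LYVE1 was not tested.

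The adhesion molecules of the endothelial junction were spread less. CDH5 (VE-cadherin; ENSSSCG00000035772, chromosome 6, 27108609 to 27142180, plus strand) was at 50.5, 64.4 and 48.5 CPM in CON and at 30.3, 52.8 and 33.8 CPM in LPS. LPS1 and LPS3 were below every CON library and LPS2 was within the CON range. For CDH5 the log2 fold change was -0.48 ± 0.32 (95% interval -1.20 to 0.24; edgeR adjusted p = 0.573). It was -0.76 without LPS2 (unadjusted p = 0.0441, adjusted p = 0.197 in edgeR) and -0.37 without LPS3.

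PECAM1 (CD31, at the contacts between endothelial cells and also on leukocytes and platelets; ENSSSCG00000017277, chromosome 12, 14582481 to 14723336, plus strand) was at 61.8, 52.8 and 34.3 CPM in CON and at 46.9, 42.4 and 38.4 CPM in LPS. All 3 LPS libraries lay inside the CON range. For PECAM1 the log2 fold change was -0.22 ± 0.31 (95% interval -0.92 to 0.48; edgeR adjusted p = 0.803), -0.22 without LPS2 and -0.13 without LPS3. Neutrophil markers summed to 15.2 to 26.3 CPM in CON and to 75.3 to 316 CPM in LPS, with 5 of 6 tested markers above 0 at an unadjusted p below 0.05. One of them, S100A8, was called (0.357, 0.312 and 0.396 CPM in CON and 14.2, 5.07 and 25.7 CPM in LPS). Of the platelet markers, PPBP and GP9 did not exceed 1.87 CPM in any library and GP1BB had 0 counts in all 6. The part of leukocytes in PECAM1 was not tested.

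The remaining genes had the highest levels and the smallest fold changes. ENG (endoglin, the co-receptor that presents BMP ligands to ALK1; ENSSSCG00000005625, chromosome 1, 268306120 to 268343827, minus strand) was at 198, 219 and 199 CPM in CON and at 244, 247 and 179 CPM in LPS. LPS1 and LPS2 were above and LPS3 below every CON library. For ENG the log2 fold change was 0.12 ± 0.30 (95% interval -0.54 to 0.78; edgeR adjusted p = 0.898). It was 0.05 without LPS2 and 0.27 without LPS3.

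EGFL7, a secreted protein of the endothelial matrix (ENSSSCG00000005828, on an unplaced scaffold, 1107088 to 1116145, minus strand), was at 74.5, 157 and 127 CPM in CON and at 161, 135 and 72.5 CPM in LPS. The ranges nearly coincided. The log2 fold change was 0.04 ± 0.40 (95% interval -0.86 to 0.94; edgeR adjusted p = 0.983), and it was -0.03 without LPS2 and 0.32 without LPS3.

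Coordinates were read from the deposited count table, and each span runs from the first to the last exon of the gene row, whose exons were counted. Some exon bases were shared with neighbouring genes. STAB1 shared 1520 of its 13267 exon bases with NT5DC2 and ENG shared 1093 of 6814 with FPGS, both on the opposite strand. PECAM1 shared 1163 of 7936 exon bases with POLG2 and 744 with DDX5 on the same strand, and 81 with MILR1 on the other. The sources used here do not say how reads in such bases were assigned, so the values of these 3 genes are uncertain. The share of bases does not give the size of that uncertainty. Summed over the libraries, DDX5 had 13883 counts, FPGS 1787, NT5DC2 642, MILR1 111 and POLG2 1. PECAM1 had 215 to 692 counts per library.

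Divided by exon length, the levels of the members in CON could be ordered. Mean RPKM (CPM per kilobase of exon) was 30.2 for ENG, 29.8 for EGFL7, 13.1 for CDH5, 7.57 for TIE1, 7.47 for STAB1, 6.48 for KDR, 6.26 for PECAM1, 5.25 for LYVE1 and 2.24 for TEK. Neighbours in this order overlapped between libraries except at 3 steps, from EGFL7 to CDH5, from CDH5 to TIE1 and from LYVE1 to TEK. In LPS the order was ENG (32.8), EGFL7 (30.7), LYVE1 (11.7), CDH5 (9.37), TIE1 (5.74), STAB1 (5.53), PECAM1 (5.36), KDR (3.50) and TEK (0.804). Only the steps from CDH5 to TIE1 and from KDR to TEK did not overlap there. TEK had the lowest RPKM of the 9 in all 6 libraries, and LYVE1 ranked from 6 to 8 in the CON libraries and from 2 to 5 in the LPS libraries.

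**Figure D3:**
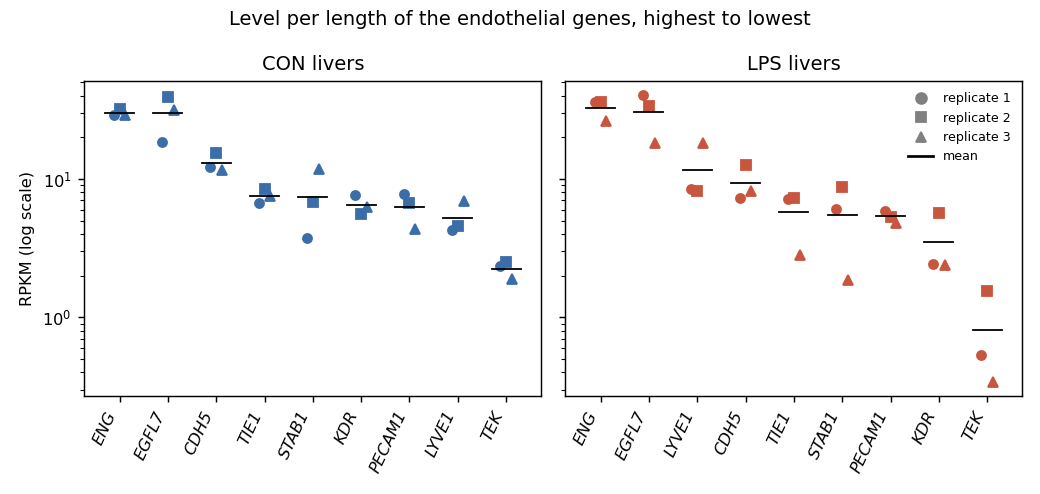
Level per exon length (RPKM, log axis) of the 9 genes, ordered by group mean from high to low in CON (left) and LPS (right), with a symbol per library and a bar for the mean. ENG and EGFL7 lead both orders with means of 29.8 to 32.8 RPKM, TEK is last in both, and LYVE1 is eighth in CON and in the third place in LPS.

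Members were also read against each other within a library, which does not rest on the scaling between libraries. LYVE1 was 2.22 ± 0.38 log2 units below the mean of the other 8 members in CON and 0.59 ± 1.20 below it in LPS (SD, n = 3 each), and its LPS libraries lay above all CON libraries. ENG was 2.38 ± 0.11 log2 units above the others in CON and 2.91 ± 0.27 above in LPS, again without overlap. In CPM the groups of ENG overlapped (log2 fold change 0.12), and this scale also moves with the levels of the other 8 members. TEK was 1.81 ± 0.30 below the others in CON and 3.38 ± 0.79 below in LPS, without overlap in the other direction. The other 6 members overlapped between the groups on this scale. Of the tested genes outside the set, read against the mean of the 9 members, 11.5% lay above CON in every LPS library and 4.21% below.

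**Figure D4:**
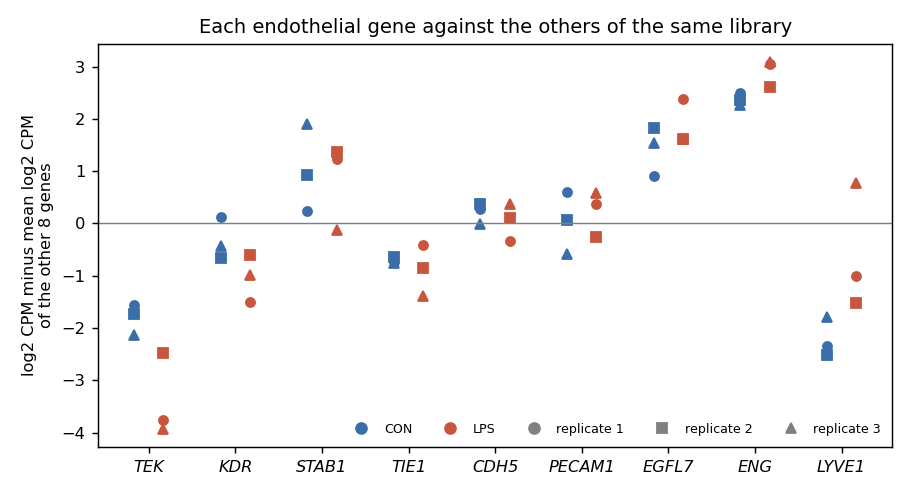
Log2 CPM of each of the 9 genes minus the mean log2 CPM of the other 8 genes of the same library, in CON (blue) and LPS (red), with genes ordered from the most negative to the most positive difference between the groups. TEK was below CON in all 3 LPS libraries, ENG and LYVE1 were above, and the other 6 genes overlapped.

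Ratios of raw counts within a library are given for a few pairs chosen with the members' values known, as a description. The TIE1 to TEK ratio was 1.66, 1.96 and 2.34 in CON and 7.82, 2.73 and 4.80 in LPS. The ENG to CDH5 ratio was 3.93, 3.41 and 4.09 in CON and 8.06, 4.67 and 5.31 in LPS. The TEK to CDH5 ratio was 0.326, 0.272 and 0.271 in CON and 0.122, 0.204 and 0.0707 in LPS. The ratio of LYVE1 to CDH5 was 0.200, 0.167 and 0.336 in CON and 0.662, 0.368 and 1.28 in LPS. These 4 ratios did not overlap between the groups. Each holds TEK, LYVE1 or ENG, which did not overlap when read against the other members. The ratios of KDR to CDH5 and of STAB1 to PECAM1 overlapped. With 3 against 3 libraries a two-sided exact permutation test cannot give a p below 0.1.

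Spread between libraries differed by group. The coefficient of variation was larger in LPS than in CON for 8 of the 9 members, all but PECAM1, and for 69.6% of all tested genes. Its median over the members was 16.3% in CON and 44.0% in LPS. LPS3 was the lowest of the 6 libraries for 6 of the 9 members and for 24.3% of all tested genes. Summed over the 9 members, the level was 535, 680 and 664 CPM in CON and 631, 686 and 420 CPM in LPS, so LPS3 was below and the other 2 LPS libraries within or just above the CON range.

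The other genes of each pathway were read from lists drawn up by function. Of the VEGF ligands, receptors and co-receptors, 0 of 7 tested genes were called, and 1 was lower at an unadjusted p below 0.05. That gene was FLT4 (VEGFR3, a receptor for VEGF-C), at 32.8, 34.8 and 51.9 CPM in CON and at 12.0, 29.4 and 6.42 CPM in LPS. LPS1 and LPS3 were again the low libraries, and the log2 fold change was -1.33 ± 0.52 (edgeR adjusted p = 0.344). Without LPS2 it was -2.14 (adjusted p = 0.0154) and FLT4 was called, as was the ligand VEGFD (-4.04, adjusted p = 0.0172). In that fit 3.45% of tested genes were called lower. VEGFD rested on few reads, with 45, 25 and 23 counts in CON and 0, 22 and 4 in LPS. Without LPS3 neither gene was called, and the values were -0.92 for FLT4 and -0.82 for VEGFD. The co-receptor NRP1 had a log2 fold change of -0.55 and lay below CON in every LPS library.

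FLT1 (VEGFR1), which binds the same ligand as KDR, was at 30.7, 34.2 and 23.3 CPM in CON and at 27.9, 26.5 and 30.1 CPM in LPS. It overlapped between the groups, with a log2 fold change of -0.06 ± 0.29 (edgeR adjusted p = 0.956). The ligand VEGFA was at 232 to 273 CPM in CON and 266 to 451 CPM in LPS (log2 fold change 0.43 ± 0.32, adjusted p = 0.625). The ratio of VEGFA to KDR counts was 5.00, 7.27 and 7.24 in CON and 19.7, 7.79 and 31.0 in LPS. These did not overlap, but LPS2 was only slightly above CON2. The ratio of KDR to FLT1 counts was 1.51, 0.986 and 1.62 in CON and 0.531, 1.29 and 0.483 in LPS, which overlapped. VEGFC (0.21), NRP2 (0.84, and 0.14 without LPS3) and VEGFD (-1.43) completed the list in log2 fold change, and none of them passed the unadjusted threshold.

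Around TEK and TIE1, 0 of 7 tested genes of the angiopoietin pathway were called. PTPRB (VE-PTP, the phosphatase that acts on TEK) was at 22.2, 16.7 and 16.0 CPM in CON and at 12.0, 12.4 and 6.14 CPM in LPS. All 3 LPS libraries were below all 3 CON libraries (log2 fold change -0.86 ± 0.37; edgeR, unadjusted p = 0.0449, adjusted p = 0.387). Of the ligands, ANGPT2 was at 3.16 to 7.42 CPM in CON and at 2.83 to 10.1 CPM in LPS (log2 fold change 0.23, adjusted p = 0.892). ANGPT1 had 14, 6 and 5 counts in CON and 0, 5 and 1 in LPS and was too low to be tested. Downstream, PIK3R1 had a log2 fold change of 0.69, FOXO1 of 0.44 and DOK2 of -0.05, with overlapping groups.

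Among the partners of endoglin, 0 of 20 tested genes were called, 2 were higher and 1 lower at an unadjusted p below 0.05, and the median log2 fold change was 0.05 (-0.22 without LPS3). The type I receptor ACVRL1 (ALK1) was at 21.9, 30.0 and 32.4 CPM in CON and at 55.4, 49.7 and 34.2 CPM in LPS. Every LPS library was above CON, LPS3 only slightly (log2 fold change 0.72 ± 0.32; edgeR, unadjusted p = 0.0471, adjusted p = 0.391). BMP6, an iron-sensing ligand made by sinusoidal endothelium, was at 29.0, 41.2 and 62.8 CPM in CON and at 79.6, 107 and 111 CPM in LPS. Its groups did not overlap either (log2 fold change 1.16 ± 0.36; edgeR, unadjusted p = 0.00898, adjusted p = 0.246). GDF2 (BMP9), the circulating ligand of endoglin and ALK1, overlapped between the groups (log2 fold change 0.12).

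Genes of the TGF-β branch of the same list had fold changes in both directions. TGFB1 had a log2 fold change of 0.65 (edgeR, unadjusted p = 0.0769) with every LPS library above CON. The receptors TGFBR2 (-0.82, edgeR unadjusted p = 0.0513) and TGFBR3 (-1.21, betaglycan, edgeR unadjusted p = 0.0413) lay below CON in every LPS library. Of all tested genes, 6.52% lay above CON in every LPS library and 9.8% below. Without LPS3 the values were 0.59 for TGFB1, -0.55 for TGFBR2 and -0.87 for TGFBR3. Without LPS2, TGFBR3 was called at -2.10 (edgeR adjusted p = 0.0133), where 3.45% of tested genes were called lower. It was not called without LPS3. ID1, a target of BMP signalling, had a log2 fold change of -0.57 with overlapping groups.

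At the VE-cadherin junction, 0 of 12 tested genes were called, with 2 higher and 1 lower at an unadjusted p below 0.05 and a median of -0.17. CLDN5, the tight junction protein claudin-5, was at 10.9, 22.8 and 15.5 CPM in CON and at 79.8, 38.1 and 112 CPM in LPS. All LPS libraries were above all CON libraries (log2 fold change 2.23 ± 0.45; edgeR, unadjusted p = 0.000648, adjusted p = 0.104), and without LPS2 it was called at 2.56 (adjusted p = 0.00430). In that fit 3.76% of tested genes were called higher. Without LPS3 CLDN5 was not called (1.86, edgeR adjusted p = 0.0811). The catenins bound to VE-cadherin were less far apart. CTNNB1 had a log2 fold change of -0.19, CTNND1 (p120) of -0.40 and CTNNA1 of 0.79 (0.50 without LPS3), and the junction molecules JAM3 and TJP1 of -1.17 and -0.27 and F11R of 0.61.

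Of the other sinusoidal markers, 0 of 15 tested genes were called, 0 were higher and 2 lower at an unadjusted p below 0.05, and the median was -0.15. OIT3, which is enriched in sinusoidal endothelium, was at 27.3, 35.5 and 43.7 CPM in CON and at 9.16, 20.3 and 11.3 CPM in LPS (log2 fold change -1.39 ± 0.38; edgeR, unadjusted p = 0.00484, adjusted p = 0.218). The nuclease gene DNASE1L3 was at 17.2, 16.7 and 25.3 CPM in CON and at 6.11, 11.6 and 8.67 CPM in LPS (log2 fold change -1.16 ± 0.37, adjusted p = 0.255). Both lay below CON in every LPS library, as did 9.8% of all tested genes. OIT3 was called without LPS2 (-1.78, edgeR adjusted p = 0.0201), where 3.45% of tested genes were called lower. Without LPS3 it was not called (-1.25, edgeR adjusted p = 0.259). PLVAP (-0.62) was lower in mean and KIT (1.12), WNT9B (0.76) and CLEC14A (0.27) were higher in mean, all with overlapping groups. CLEC1B did not exceed 0.0989 CPM in any library and was not tested.

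The pan-endothelial markers had fold changes in both directions. Of 20 tested genes 0 were called, and 4 were higher and 4 lower at an unadjusted p below 0.05, with a median of -0.08. Of these, CLDN5 (higher) and PTPRB (lower) were also counted in the junction and angiopoietin lists above. Besides CLDN5, the sphingosine-1-phosphate receptor S1PR1 was at 20.6, 28.6 and 22.3 CPM in CON and at 58.0, 29.0 and 58.2 CPM in LPS (log2 fold change 1.02 ± 0.35, edgeR adjusted p = 0.282). Without LPS2 it was called at 1.29 (adjusted p = 0.0365), where 3.76% of tested genes were called higher. Without LPS3 S1PR1 was not called (0.88, edgeR adjusted p = 0.368). The gap junction gene GJA5 had a log2 fold change of 1.38 with overlapping groups, and 0.78 without LPS3. Lower in mean were the adhesion receptor gene ADGRL4 (-1.45) and CALCRL (the adrenomedullin receptor, -1.33), which lay below CON in every LPS library. EMCN (endomucin) was at 9.47, 3.12 and 1.19 CPM in CON and at 1.74, 1.31 and 0.410 CPM in LPS. CON1 was the high library and the groups overlapped, and the log2 fold change was -2.12 with all libraries and -0.97 without CON1. CALCRL was at -0.72 without CON1. Without LPS3 the list's median was 0.18.

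**Figure D5:**
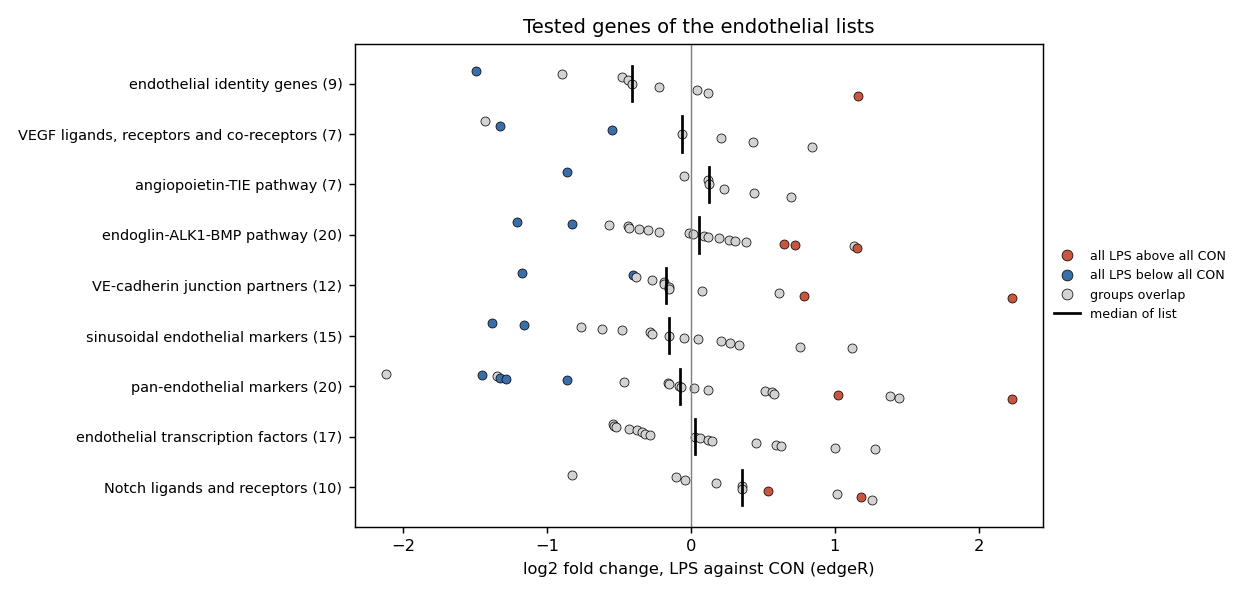
Log2 fold change of LPS against CON (edgeR) for every tested gene of 9 of the endothelial lists, with the number tested in brackets, a bar at the median, red for genes whose LPS libraries all lay above CON, blue for all below and grey for overlap. Medians ranged from -0.41 for the 9 identity genes to 0.35 for the Notch list, and no gene shown was called with all 6 libraries. The list of activation and clotting genes, with a median of 1.30 (-0.16 without LPS3), is not plotted. Genes that lists share, such as CLDN5 and PTPRB, are plotted under each list that holds them.

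The mean standardised profile of the 9 members over the 6 libraries was used to look for similar genes. The genes outside the set with the highest Pearson correlation to it were TRIM41, LRRC26, RPS6KA2, NUDT2 and FN3KRP, with r from 0.994 to 0.996. These values describe 6 libraries and were the highest of the tested genes with a symbol, so no p is given. The profile was lowest in LPS3, and LYVE1 itself ran against it (r = -0.81).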

How the data were processed

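Input RNA-seq libraries of piglet liver (3 CON, 3 LPS) were analysed, and the immunoprecipitated libraries were not analysed here. The values the authors deposited are whole-number read counts, not normalized, in 1 table that also lists each gene's exons and length. The submitters' processing notes name cutadapt 1.9.3, HISAT2 and the builds galGal6 and hg38, neither of which is a pig genome. The sources used here do not name the counting program or its strand setting. Of 13672 uniquely named genes, 13661 had a span in the table that overlapped the RefSeq gene of that symbol on Sscrofa11.1. For CON replicates 1 and 2 the labels list 2 sequencing entries, against 1 column in the table, and 0 columns were left unmapped. Symbols were paired with 15029 identifiers. No library was a repeat of another (chi-square per gene of 46.8 or more for every pair).

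The groups were compared with edgeR 4.0.16 in R 4.3.3 by filtering (filterByExpr) at a minimum count of 10, TMM scaling, robust glmQLFit and glmQLFTest, unpaired, with Benjamini-Hochberg adjustment over all tested genes. Genes were called at an adjusted p under 0.05 and more than 1.5-fold difference. CPM and RPKM were computed from TMM-scaled library sizes. Alternatives were RLE and total-count scaling, other filters, DESeq2 1.42.0, limma-voom (limma 3.58.1), a replicate block, other fold thresholds and leaving out each library. The scripts were tested on simulated data.

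The members and lists were chosen with earlier results of these data known. Genes named were all members, fixed partners of the member receptors and, from each list, up to 3 tested genes per direction with the smallest unadjusted p. Other genes named were chosen after their values were seen. A gene that this rule would name is not reported here.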

Additional observations from a re-analysis of the deposited data

How the results depend on the processing

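The count of 0 called members held under RLE and total-count scaling, the stricter filter, DESeq2 and limma-voom. Other fold thresholds could not change it, because the lowest edgeR adjusted p of a member was 0.293. The count was 1 with no filter on low counts (TEK, log2 fold change -1.53, adjusted p = 0.0218) and ranged from 0 to 2 when single libraries were left out. The log2 fold change of EGFL7 turned to -0.0068 with total counts, -0.21 without CON replicate 1, -0.20 without LPS replicate 1 and -0.03 without LPS replicate 2, and that of STAB1 to 0.089 without CON replicate 3. Leaving out single libraries gave -0.21 to 0.32 for EGFL7 and -0.93 to 0.089 for STAB1. The cause was not tested. The other 7 members kept their sign in all 13 alternatives. Total counts moved the median of all genes to -0.12, and the members' median was then -0.41. Over all genes, 7 were called (7 higher, 0 lower), 9 with RLE factors (8 higher, 1 lower), 12 with total counts, 885 with no filter, 0 with at least 10 counts in every library, 416 with DESeq2, and 0 to 982 when single libraries were left out (982 without LPS replicate 2, 58 without LPS replicate 3). A replicate block gave 51 over all genes and 0 members. Same-numbered libraries correlated at -0.24, 0.22 and 0.03 in their deviations from the group means, so the numbers were not taken to pair the samples.

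With 3 libraries per group, counts as low as 17 per member and library, and a biological coefficient of variation of 0.397, 95% intervals of the members' log2 fold changes each spanned more than 1 unit. Shared exon bases and the unknown strand setting limit STAB1, PECAM1 and ENG further.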

Other observations

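Genes of endothelial activation, and of clot formation and clot breakdown, were read beside the identity genes. Of 11 tested genes 0 were called, 9 had a fold change above 0, 4 were higher at an unadjusted p below 0.05 and the median log2 fold change was 1.30. Their summed level was 139, 181 and 124 CPM in CON and 306, 112 and 2545 CPM in LPS, so LPS3 was far above and LPS2 below every CON library, and without LPS3 the median was -0.16. PLAT (tissue plasminogen activator) was at 3.31, 4.37 and 3.07 CPM in CON and at 47.1, 14.1 and 342 CPM in LPS, above CON in every LPS library (log2 fold change 5.24 ± 1.09, edgeR adjusted p = 0.119), and without LPS3 it was called at 3.11 (adjusted p = 0.0255). CCL2, a monocyte chemoattractant, was at 12.6, 10.6 and 7.12 CPM in CON and at 17.7, 5.24 and 217 CPM in LPS. LPS3 carried its log2 fold change of 2.99, which was 0.18 without that library. F3 (-0.01) and SELP (-0.06) were near 0. Without LPS2, PLAT and CCL2 were called higher, as were 3.76% of the genes tested in that fit. The adhesion receptors VCAM1 (139 CPM) and ICAM1 (384 CPM) were far above the CON libraries in LPS3 (CON at most 23.1 and 73.3 CPM), and LPS1 and LPS2 were not above the CON range for either gene.

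Of 10 Notch ligands and receptors 0 were called, and the median was 0.35. JAG1, a Notch ligand, lay above CON in every LPS library (log2 fold change 1.18 ± 0.36, edgeR adjusted p = 0.244), as did NOTCH2 (0.53), whereas JAG2 (1.01), NOTCH3 (-0.83), NOTCH1 (-0.11) and DLL1 (-0.04) overlapped. Without LPS2, JAG1 (1.45) was called higher and NOTCH3 (-2.56) lower, against 3.76% and 3.45% of the genes tested in that fit. Without LPS3 neither was called, and the values were 1.14 for JAG1 and -0.27 for NOTCH3. Of 17 endothelial transcription factors 0 were called and 0 passed an unadjusted p of 0.05, with a median of 0.03. ETS2 (1.28, and 0.22 without LPS3), KLF4 (1.00) and KLF2 (0.59) had positive and ETS1 (-0.54), MEF2C (-0.54) and HHEX (-0.37) negative log2 fold changes.

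In other cell type lists, the median log2 fold change was -0.26 for 12 hepatocyte genes (FGB 1.45, CYP2E1 -0.74, ALB -0.76), -0.20 for 9 T or NK cell genes (PRF1 0.18, NKG7 0.02, CD4 -1.29, CD2 -0.75, LCK -0.36), -0.26 for 7 B or plasma cell genes (CD79B 0.10, JCHAIN -1.25, MZB1 -0.90) and -0.04 for 12 stellate cell or fibroblast genes (TAGLN 1.62, ACTA2 2.09, COL1A2 -0.75, DCN -0.49, RELN -0.37), with 0 called in each. Of the stellate cell or fibroblast genes 6 were above and 6 below 0, and ACTA2 was at 17.5 to 57.1 CPM in CON and at 37.7, 71.5 and 397 CPM in LPS, with a log2 fold change of 0.47 without LPS3. All 5 cholangiocyte genes had a fold change above 0 (KRT7 1.61, EPCAM 1.42, SPP1 1.46) and 0 were called. Of the red cell genes, HBB was at 52.5 to 60.0 CPM in CON and at 72.6 to 246 CPM in LPS (log2 fold change 1.59, edgeR adjusted p = 0.218) and ALAS2 had 0.79, with 0 of 2 called. Of the neutrophil genes, S100A12 (4.43) and CSF3R (2.91) lay above CON in every LPS library and ELANE (-0.66) overlapped.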
